A study of Mus musculus with 12 samples.

Results

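The genes described here are long noncoding RNA (lncRNA) genes that lie just past the 3′ end of a protein-coding gene, on its strand. They were taken from the gene annotation deposited with a study of mouse heart cells (build mm9). A member is a catalogue gene named by n and a number whose span overlaps no protein-coding span and whose nearest protein-coding gene lies within 5000 bases, on the same strand, with the lncRNA gene beyond its 3′ end. There were 1498 such genes among 36991 catalogue lncRNA genes, and they followed 1154 different coding genes. The files pair these catalogue numbers with no names, so most members are called here by the coding gene they follow and the distance in bases from its last base to their first.

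The study set cardiomyocytes, the contracting muscle cells of the heart, against nonmyocytes from 3 hearts of wild-type female FVB/NJ mice aged 12 weeks. Each fraction gave 3 libraries of polyadenylated RNA. Cardiomyocytes were lysed straight after the hearts were digested with collagenase, whereas nonmyocytes were first cultured into a population that is mainly fibroblasts (2 passages by the protocol, P1 by the cell type label). Cell type and culture therefore cannot be told apart in any comparison. No label ties a library to one heart, so p-values reflect how the 3 libraries of a fraction varied, and part of that may be technical.

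A polyadenylated messenger RNA ends where its transcript is cut and a poly(A) tail is added, usually shortly after the hexamer AATAAA. Many genes have several such ends, and the choice among them differs between cell types and with growth, which lengthens or shortens the 3′ untranslated region (UTR). RNA found past the last annotated base of a gene can come from a longer form of its messenger RNA, from transcription that runs on, or from a separate gene. The libraries do not keep the strand and hold reads of fragments, so the counts alone do not tell these apart.

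Where the 3′ end of a coding gene is drawn decides whether a gene counts as a member. The deposited annotation was therefore set beside a later one, GENCODE M21 (build GRCm38), without converting coordinates. For a transcript present in both, the distance from its stop codon to the 3′ end of its gene was measured in each, and the lncRNA gene was placed on the same scale. This was possible for 1246 members (83.2%). Counted once per member, the coding genes ended a median of 928 bases past the stop codon in the deposited annotation and 2420 bases past it in M21. The M21 end is the farthest end of any coding transcript of the gene, in genome bases. A member before it therefore need not lie in the 3′ UTR. Of the 1246 members, 507 (40.7%) lay before the M21 end with at least 90% of their span, 28 lay partly before it and 711 wholly past it. The last base of 228 members (18.3%) fell within 10 bases of the M21 end. The last 30 bases of 5 coding genes in M21, from its GRCm38 transcripts, are shown as examples in which a lncRNA gene ends within 10 bases of the M21 end. They were picked from the named members for a tail that holds AATAAA, and the tails of Cacna2d1, Plxna1 and Igsf3, whose lncRNA genes end so as well, hold none. AATAAA is in capitals, but in the Sod2 and Palld tails a further AATAAA that overlaps the marked one is not marked. Each sequence reads 5′ to 3′ on the strand of the gene, and only that strand was searched.
Sod2, chr17:13020105-13020134, plus strand: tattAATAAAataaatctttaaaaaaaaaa
Fbxo32, chr15:58175879-58175908, minus strand: aacttcAATAAAtgtttttcctacaacaca
Slco2a1, chr9:103090422-103090451, plus strand: aacaatAATAAAatgtacatagttcgctac
Palld, chr8:61511433-61511462, minus strand: ttaacatcAATAAAtaaatatttaacagat
Ccnd2, chr6:127125162-127125191, minus strand: tttggacAATAAActcaccttgacctacaa
AATAAA stood in such a 30-base tail for 453 of 961 coding genes of members (47.1%) and for 51.0% of the 21901 coding genes of M21. A match is a run of letters and shows no use of the site.

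The lncRNA gene past Cacna1c, the pore subunit of the L-type calcium channel, spans bases 2367 to 6656 after the stop codon. Cacna1c itself ends at base 1591 in the deposited annotation and at base 6655 in M21. Past Ccnd2, the gene of cyclin D2, which drives cells into division, the farther of the lncRNA genes spans bases 4362 to 5173 after the stop codon. Ccnd2 ends at base 103 in the deposited annotation and at base 5176 in M21. Other members lie past the end in both annotations. The lncRNA gene past Lrrc10, a heart-restricted leucine-rich repeat protein, begins at base 950, and Lrrc10 ends at base 524 in both.

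**Figure D1:**
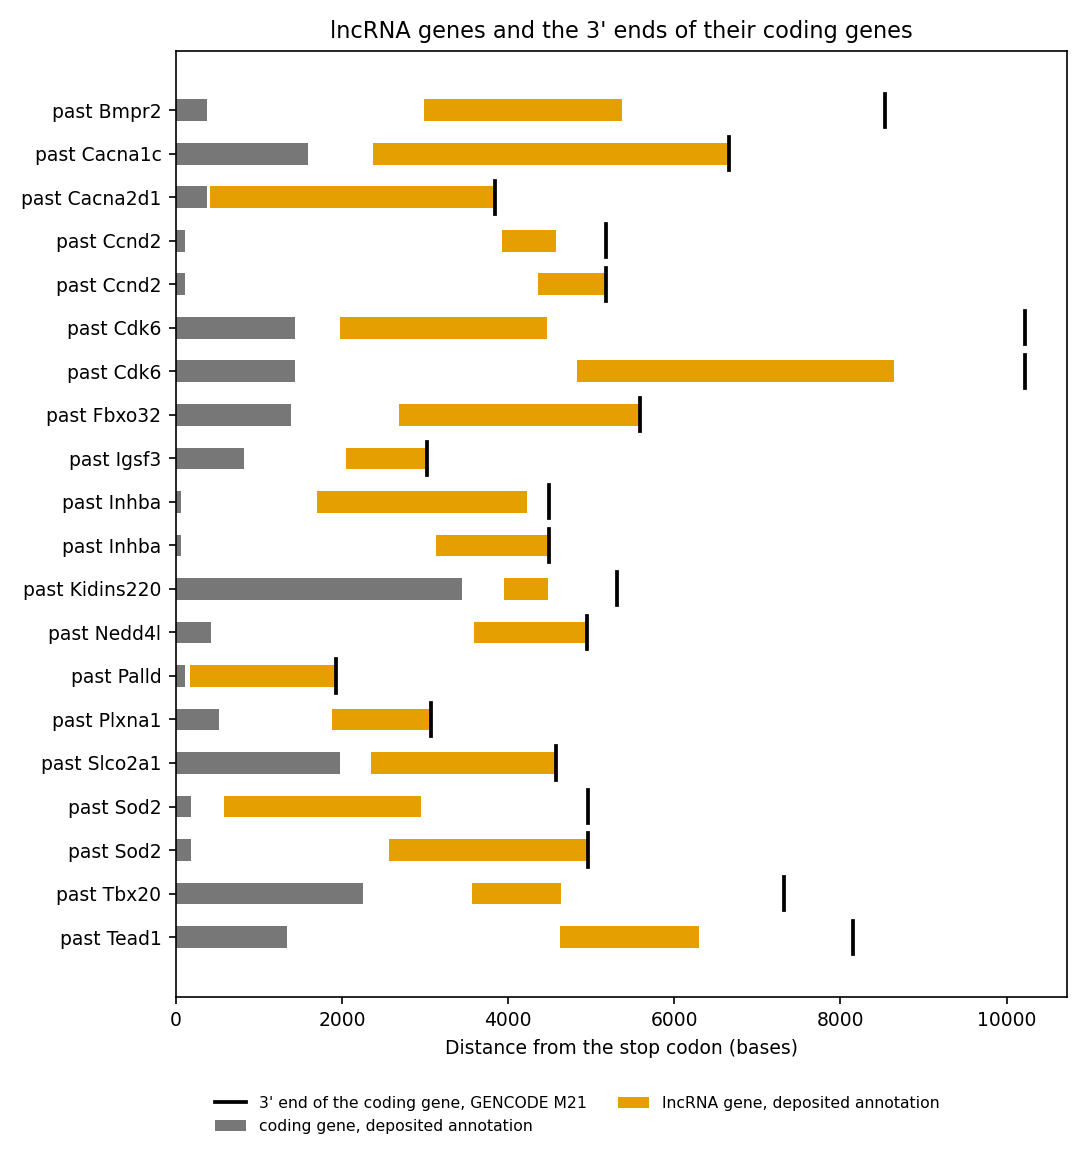
Named members that lie before the M21 3′ end of their coding gene. The horizontal axis is the distance from the stop codon in bases; grey bars show the coding gene in the deposited annotation, orange bars the lncRNA gene and black ticks the M21 3′ end. The bar past Cacna1c ends at base 6656, next to the tick at base 6655, whereas the bar past Bmpr2 ends at base 5374 and the tick stands at base 8532.

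Members differed from other lncRNA genes in structure. A single exon made up 1196 members (79.8%), against 41.0% of lncRNA genes downstream on the opposite strand, 49.6% of those upstream on the same strand, 43.7% of those upstream on the opposite strand and 43.2% of those more than 5000 bases from a coding gene. The median exon length of members was 1676.5 bases and their median distance from the coding gene 1521.5 bases (quartiles 609.5 and 2805). Several members followed the same coding gene in 246 cases, with up to 9 past one gene, so members are not independent of each other. Exon bases were shared with other annotated genes in 630 members. The 210 members with every exon base shared had 0 counts in all libraries, as had all 6532 genes of this kind in the table, so reads in shared bases are not in these counts.

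Most members were near or below detection. No library held a count of 538 members, 617 had counts below the filter of the test, and 343 (22.9%) were tested, against 25.5% of all genes. Among members whose coding gene passed the filter 30.1% were tested, and among the others 3.25%. In the other places 12.3% (downstream, opposite strand), 8.64% (upstream, same strand), 6.68% (upstream, opposite strand) and 3.91% (more than 5000 bases away) were tested. Of the members before the M21 end 36.7% were tested, and of those past it 11.8%. Levels are CPM, counts relative to library size after TMM scaling. The median member tested averaged 3.76 CPM in cardiomyocyte and 2.39 CPM in nonmyocyte libraries, and 17 reached a mean of 100 CPM in a fraction. Together the members took 0.393% ± 0.048 of the counts in cardiomyocytes and 0.396% ± 0.027 in nonmyocytes (SD, n = 3 each). The difference was smaller than the spread between libraries (exact two-sided permutation test, p = 1, smallest possible p 0.1).

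Library totals were 5956831 to 26851830 counts in cardiomyocytes and 8126422 to 10792544 in nonmyocytes. All 6 cardiomyocyte markers were higher in cardiomyocytes and all 7 fibroblast markers lower. Markers of other cells moved too. The 7 endothelial markers summed to 398 to 844 CPM in cardiomyocyte libraries against 86.1 to 96.1 CPM in nonmyocyte libraries (5 of 7 higher). The 4 blood markers summed to 8.0 to 359 CPM against 1.40 to 3.29 CPM (1 called higher). The 6 smooth muscle and pericyte markers went both ways, with 2 called higher and 4 lower. Their sum was 433 to 657 CPM against 6265 to 7822 CPM. The 6 macrophage markers summed to 42.4 to 49.4 CPM against 93.5 to 104.9 CPM (2 called lower). The 3 glial markers summed to 2.32 to 4.09 CPM against 2.25 to 5.02 CPM (1 called higher, 1 lower). The part of such cells in the results for members was not tested. In bulk RNA, fewer cells of a type and less RNA per cell cannot be told apart.

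Which downstream lncRNA genes set the fractions apart was asked with edgeR's quasi-likelihood test over all 14734 genes tested. Of the 343 members tested, 131 (38.2%) were higher in cardiomyocytes, 45 (13.1%) were lower and 167 were not called (Benjamini-Hochberg adjusted p under 0.05). Over all genes tested 31.6% were higher and 32.1% lower, and over all 2729 catalogue lncRNA genes tested 31.6% were higher and 19.2% lower. The estimated difference was at least 2-fold in 118 of the 131 and in 43 of the 45, though the test itself was against no difference. The median log2 fold change (cardiomyocytes over nonmyocytes) was 0.61 over the tested members, 0.36 over the tested catalogue lncRNA genes and -0.02 over all genes. With library totals as the only scaling, the median of all genes shifted by -0.68. Then 88 members were higher and 85 lower, so that 50.9% of called members were higher, against 74.4% with TMM. Over all genes, 30.9% of those called were higher with library totals and 49.6% with TMM. Members that passed the filter through one fraction only had to differ, so these counts describe the tested members and not all 1498. Libraries of the fractions did not overlap in 210 tested members (61.2%), against 70.4% of all genes tested. Called members named for level or fold were picked from those without overlap. The lack of overlap stated for them below comes from that choice.

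The most abundant member higher in cardiomyocytes was n297435 on chromosome 1 (mm9, 73956817 to 73957939, minus strand), a single exon 1581 bases past Tns1, the gene of tensin 1, which ties actin to focal adhesions. It held 983, 617 and 570 CPM in cardiomyocytes against 373, 304 and 264 CPM in nonmyocytes, and the lowest cardiomyocyte library stood above the highest nonmyocyte library. Its log2 fold change was 1.20 ± 0.22 (adjusted p = 0.000359 in edgeR), and with library totals alone it was 0.56 and not called (adjusted p = 0.0555 in edgeR). Tns1 itself averaged 1520 ± 159 CPM in cardiomyocytes and 922 ± 119 CPM in nonmyocytes (SD, n = 3 each), a log2 fold change of 0.72 ± 0.17.

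The members past Lrrc10, Cacna1c and Ppara differed by larger folds. The single-exon n269734, 426 bases past Lrrc10 on chromosome 10 (mm9, 116484250 to 116486803, plus strand), held 149.8, 149.7 and 138 CPM in cardiomyocytes against 1.05, 1.06 and 0.854 CPM in nonmyocytes. The fractions were far apart, with a log2 fold change of 7.20 ± 0.23 (adjusted p = 1.18e-10 in edgeR), and Lrrc10 had one of 7.30 ± 0.28. The member past Cacna1c (mm9 chromosome 6, 118537257 to 118541546, minus strand) held 155.6, 118 and 131.5 CPM against 1.27, 2.03 and 2.72 CPM. No libraries overlapped, and its log2 fold change was 6.07 ± 0.27 beside 5.95 ± 0.19 for Cacna1c. The member 287 bases past Ppara, a nuclear receptor that switches on fatty acid use, held 115, 64.9 and 78.6 CPM against 0.299, 0.386 and 1.01 CPM. This member also separated the fractions without overlap, with a log2 fold change of 7.21 ± 0.39 (8.02 without nonmyocyte replicate 3) beside 6.60 ± 0.24 for Ppara.

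Some members had almost no reads in nonmyocytes. The member 405 bases past Chrm2, the muscarinic receptor that slows the heartbeat, held 7.36, 12.9 and 10.6 CPM in cardiomyocytes and 0 counts in nonmyocytes. Against a floor of 3 counts over the nonmyocyte libraries it was at least 137-fold higher. With 1 nonmyocyte count each, the member past Scube2, a secreted signalling protein, was 322-fold higher (95% exact interval 57.5 to 12770) and the member past Gcnt1, a sugar transferase of the Golgi, 235-fold (41.8 to 9304). These intervals cover counting error only. The member 390 bases past Sod2, the superoxide dismutase of mitochondria, held 94.2, 167 and 169 CPM against 10.1, 9.47 and 10.2 CPM. Its fractions did not overlap, and the log2 fold change was 3.86 ± 0.25 beside 2.84 ± 0.16 for Sod2. Members past Glg1, a Golgi glycoprotein, and Palld, the actin bundler palladin, were abundant and differed by less than 2-fold. Past Glg1 the level averaged 190 ± 12.5 CPM in cardiomyocytes and 115 ± 7.43 CPM in nonmyocytes, and past Palld 141 ± 17.1 CPM and 95.5 ± 7.0 CPM (SD, n = 3 each). Neither was called with library totals alone, where the fold past Palld turned to -0.10 on the log2 scale.

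Among the members lower in cardiomyocytes, the single-exon n273406, 60 bases past Kif1a, a kinesin motor that carries vesicles, on chromosome 1 (mm9, 94912042 to 94914798, minus strand) held 0.775, 1.04 and 1.21 CPM in cardiomyocytes against 104, 100.5 and 102 CPM in nonmyocytes. The fractions lay far apart, and the log2 fold change was -6.57 ± 0.23 (adjusted p = 1.39e-10 in edgeR) beside -6.58 ± 0.28 for Kif1a. The member 369 bases past Slco2a1, the prostaglandin transporter, has 2 exons and held 0, 0.777 and 0.242 CPM against 47.4, 32.8 and 28.4 CPM. It was low in every cardiomyocyte library, with a log2 fold change of -6.36 ± 0.49 (-7.50 without cardiomyocyte replicate 2) beside -6.11 ± 0.24 for Slco2a1. Past Plxna1, a semaphorin receptor, the level averaged 27.5 ± 4.62 CPM in cardiomyocytes and 135 ± 22.6 CPM in nonmyocytes.

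Inhba and Ccnd2 were each followed by a pair of tested members that overlap each other. Inhba codes for a subunit of activin, a TGF-beta family ligand. The member 1631 bases past it held 0.194, 0.518 and 0.630 CPM in cardiomyocytes against 36.1, 32.9 and 29.7 CPM in nonmyocytes, and the one 3068 bases past it had 0 counts in cardiomyocytes and was at least 63.6-fold lower. Past Ccnd2 the member at 3826 bases held 19, 15 and 15.2 CPM against 120, 110.4 and 107.5 CPM. The member at 4259 bases held 26.7, 32.3 and 24.5 CPM against 166.6, 108.9 and 59.6 CPM, so that its nonmyocyte libraries spread more. Neither pair overlapped between fractions. The log2 fold changes past Ccnd2 were -2.80 ± 0.18 and -2.0 ± 0.30, beside -3.50 ± 0.23 for Ccnd2. More generally, 23 coding genes had at least 2 tested members. The folds were of one sign in 20 of these, and in all 13 with at least 2 called members the called ones agreed in sign. Of all called members 74.4% were higher, so some agreement would arise without any link. Members past one gene can overlap, as those past Inhba and Ccnd2 do, and are then not separate observations.

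**Figure D2:**
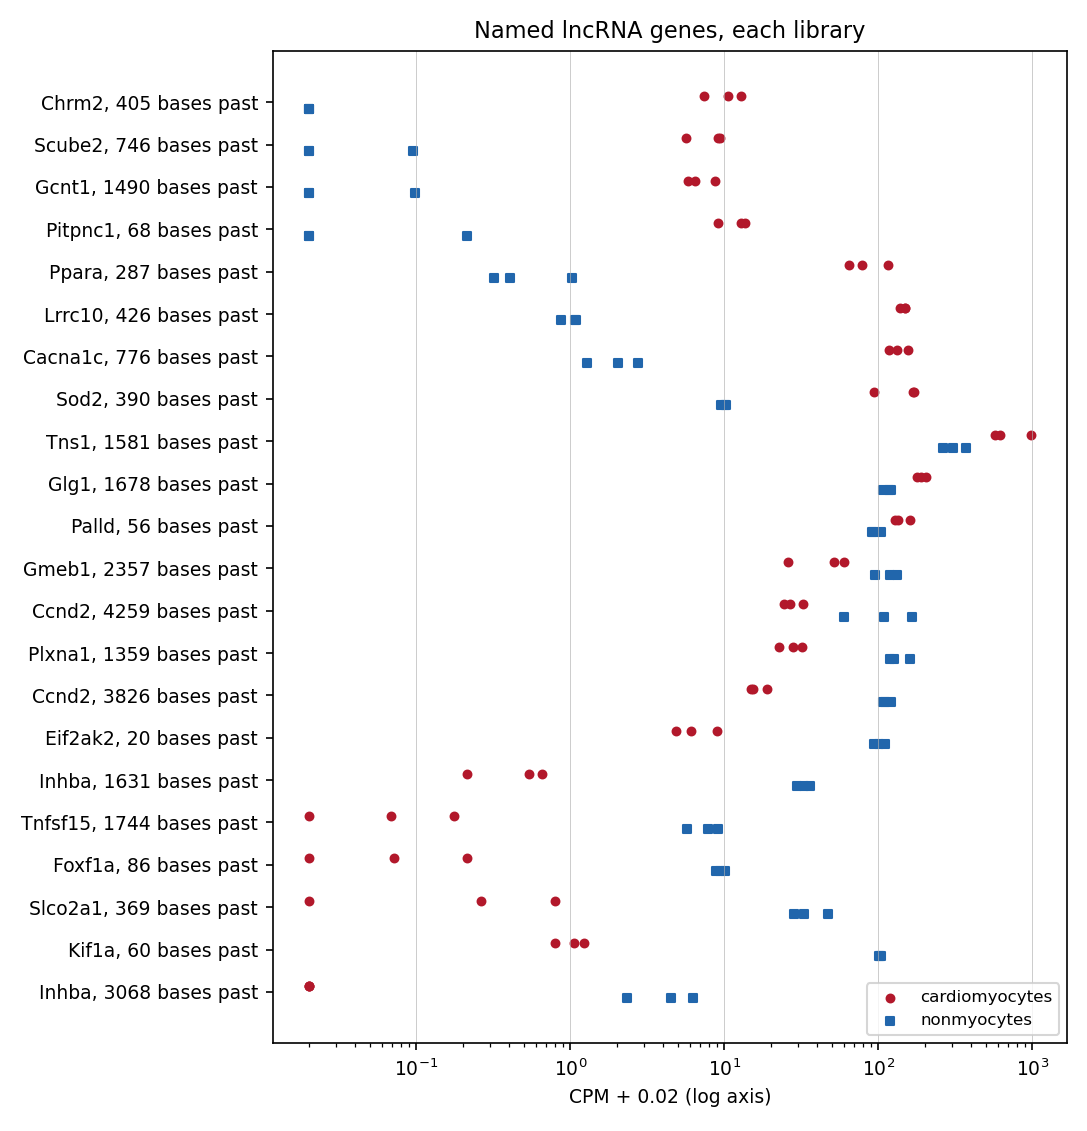
Levels of the most abundant called members and of those with the largest folds, by coding gene and distance. The horizontal axis is CPM plus a small constant on a log scale, red circles are cardiomyocyte libraries and blue squares nonmyocyte libraries (3 each), so points at the left edge are 0 counts. Past Lrrc10 the red points lie at 138 to 149.8 CPM and the blue ones near 1 CPM, whereas past Kif1a the blue points lie at 100.5 to 104 CPM.

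The lists of coding genes held few tested members, too few to set their counts against the shares over all. Those shares were 38.2% higher and 13.1% lower over tested members, and 31.6% and 32.1% over all genes tested. Of sarcomere and Z-disc genes, Fbxo32, a ubiquitin ligase of muscle, was followed by a tested member, at 11.4 ± 2.39 CPM in cardiomyocytes and 0.232 ± 0.252 CPM in nonmyocytes. Among calcium handling and ion channel genes, the members past Cacna1c and Cacna2d1, an auxiliary subunit of the same channel, were both higher. Of 14 members past cell division genes 4 were tested, past Ccnd2 and the kinase gene Cdk6 only, and all 4 were lower. The ratio of member to coding gene, tested below, was called higher in cardiomyocytes for 1 of them. Past TGF-beta signalling genes 2 of 3 were lower, both past Inhba, and the one past the receptor gene Bmpr2 was not called (13.9 ± 7.28 CPM in cardiomyocytes and 20.8 ± 2.68 CPM in nonmyocytes). Its log2 fold change was -0.55. It was called at -0.95 without cardiomyocyte replicate 3 (adjusted p = 0.0384 in edgeR) and at -1.24 with library totals alone (0.00470), and was -0.21 without cardiomyocyte replicate 1 (0.425). The one tested member past a mesenchymal transcription factor, 86 bases past Foxf1a, was lower, at 0.0819 ± 0.10 CPM against 9.43 ± 0.602 CPM. Both members past cardiac transcription factors were not called. Past Tbx20 the level averaged 4.39 ± 1.58 CPM in cardiomyocytes and 6.42 ± 4.53 CPM in nonmyocytes. Past Tead1, which binds DNA at the end of the Hippo pathway, it averaged 86.5 ± 3.43 CPM and 89.2 ± 7.19 CPM (SD, n = 3 each).

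Past stress and early response genes 2 of 4 tested members were higher, both past Sod2. The member past Cebpb, a transcription factor of inflammation, was not called, at 1.93 ± 0.176 CPM in cardiomyocytes and 0.943 ± 0.600 CPM in nonmyocytes. The member past the heat shock gene Hspa1b was lower, at 0.703 ± 0.615 CPM and 8.46 ± 1.92 CPM. Hspa1b itself held 38.6, 1.35 and 0.776 CPM in cardiomyocytes against 0.672, 0.773 and 0.543 CPM in nonmyocytes, so its mean rests on cardiomyocyte library 1, and its reads can fall on a near-identical copy. No member followed a gene on the lists of mitochondrial energy metabolism or cytoskeleton. The 4 members past extracellular matrix genes were not tested.

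How closely a downstream lncRNA gene followed its coding gene was described over 330 pairs with both genes tested. Both were called in 131 pairs, and in 126 of these (96.2%, 95% exact interval 91.3 to 98.7) they differed in the same direction, 89 higher and 37 lower in cardiomyocytes. The interval covers counting error only, since pairs share libraries. The same share was 80.8% (21 of 26) for lncRNA genes downstream on the opposite strand, 91.7% (11 of 12) upstream on the same strand, 89.6% (43 of 48) upstream on the opposite strand and 85.9% (79 of 92) more than 5000 bases away. In a further 38 pairs the lncRNA gene alone was called, 33 of them higher and 5 lower, in 64 the coding gene alone, and in 97 neither. Across the 330 pairs, the log2 fold changes of lncRNA and coding gene correlated with Pearson's r of 0.87 and Spearman's rho of 0.80. Pearson's r was 0.60 in 49 pairs downstream on the opposite strand, 0.68 in 26 upstream on the same strand, 0.69 in 119 upstream on the opposite strand and 0.52 in 208 more than 5000 bases away. The genes of a pair share libraries and depth, and the differences between places were not tested.

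**Figure D3:**
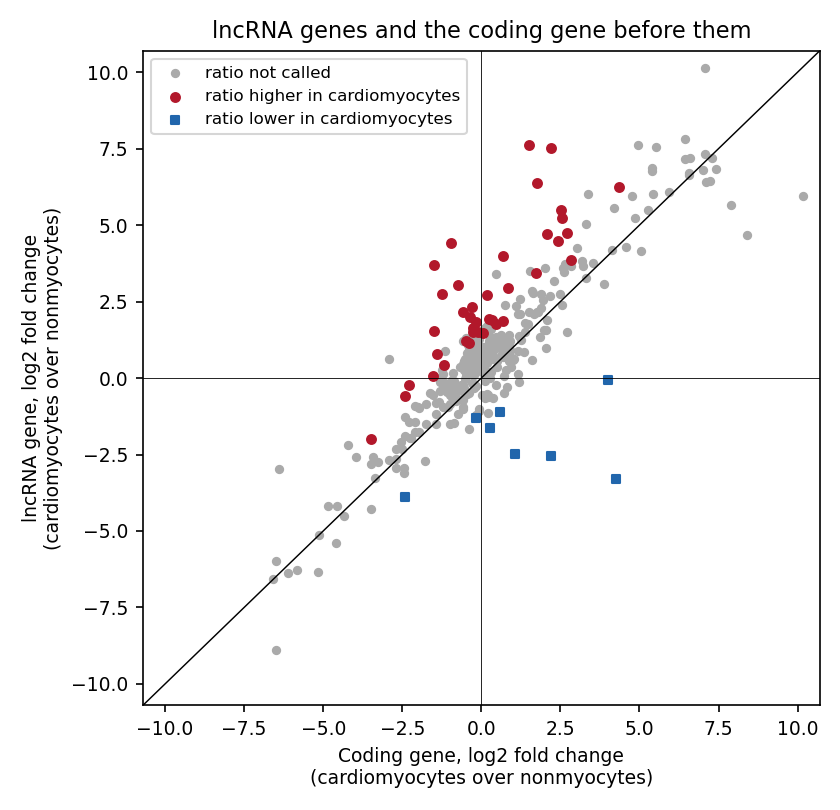
Log2 fold change (cardiomyocytes over nonmyocytes) of the downstream lncRNA gene on the vertical axis and of its coding gene on the horizontal axis, 330 pairs. The diagonal marks equal folds, red circles the 39 pairs with a ratio called higher in cardiomyocytes and blue squares the 8 called lower. Most points follow the diagonal, and 74.2% lie above it.

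By distance, with both genes called, directions were the same in 35 of 35 pairs at 1 to 500 bases, 32 of 33 past 500 and up to 1000, 22 of 24 up to 2000 and 37 of 39 up to 5000, with Pearson's r of 0.91, 0.88, 0.88 and 0.83. The share of members tested was 29.3%, 27.7%, 24.2% and 16.5% in these bins. Single-exon members (286 pairs) had an r of 0.89 and spliced members (44 pairs) of 0.73. Pairs with the lncRNA gene before the M21 end had an r of 0.92 (181 pairs) and those past it 0.79 (82 pairs), with the same direction in 75 of 77 and 29 of 30 pairs with both called. Where the lncRNA gene ends within 10 bases of the M21 end, directions were the same in 39 of 39. Around the limit of the rule, 11 of 124 lncRNA genes 4001 to 5000 bases past a coding gene were tested. Directions were the same in 2 of 2 pairs with both called, but Pearson's r over the 11 pairs was 0.21. At 5001 to 6000 bases 15 of 108 were tested, with the same direction in 5 of 5 and an r of 0.92 over 14 pairs. With so few pairs these values do not settle how closely such genes follow. The last tested member inside the limit, 4624 bases past Prep, had a log2 fold change of 2.0, beside -0.36 for Prep, which was not called. The first gene outside it, 5104 bases past Zfp871, had one of 0.71 beside -0.41 for Zfp871, neither of them called.

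Whether the lncRNA gene differed between fractions by another fold than its coding gene was tested as a ratio, lncRNA over coding gene, in one edgeR fit over the 732 pairs of all places. The ratio was higher in cardiomyocytes for 39 of the 330 members (11.8%) and lower for 8 (2.42%), against 15.8% and 11.5% over all pairs tested (27.3% in either direction). Without cardiomyocyte replicate 2 the counts were 22 and 3, and without cardiomyocyte replicate 3 they were 22 and 5. Without nonmyocyte replicate 2 or 3 the count of lower ratios was also 5. The median log2 change of the ratio was 0.51 over members. The lncRNA gene had the higher log2 fold change of the pair in 74.2% of member pairs. That share was 49.0% downstream on the opposite strand and 46.2% upstream on the same strand. It was 51.3% upstream on the opposite strand and 54.8% more than 5000 bases away, and these differences between places were not tested. Of the pairs before the M21 end 24 of 181 had a higher and 0 a lower ratio (edgeR quasi-likelihood), and of those past it 9 and 7 of 82. Simulated 4-fold changes of this ratio were recovered in 51% of 100 changed pairs, so many differences of that size would not be called.

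**Figure D4:**
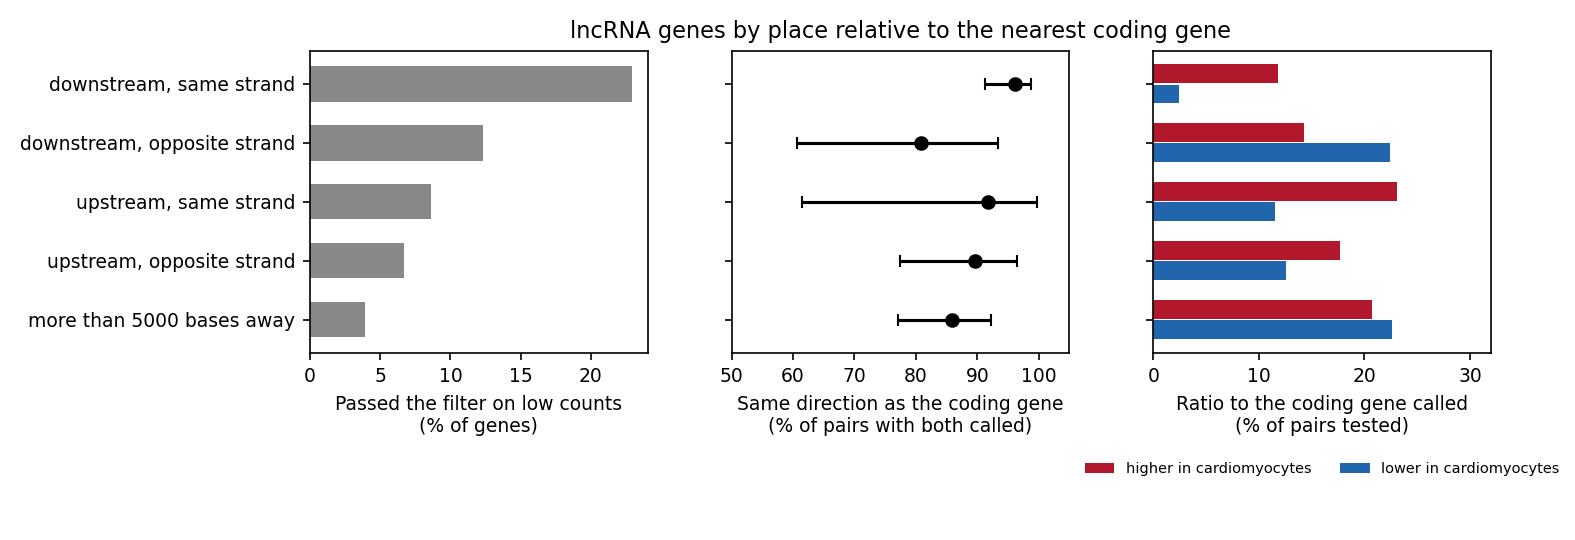
lncRNA genes by place relative to the nearest coding gene. From left to right, the horizontal axes give the percent of genes that passed the filter on low counts, the percent of pairs with the same direction among those with both genes called (points, with 95% exact intervals), and the percent of pairs with a ratio called higher (red) or lower (blue) in cardiomyocytes. The downstream, same-strand genes stand at 22.9%, 96.2%, 11.8% and 2.42%.

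Where each cardiomyocyte library held at least 2 CPM of the member, the 5 largest rises of the ratio were past Kidins220, Pitpnc1, Uggt1, Klhl7 and Nedd4l. Of these coding genes, Uggt1, Kidins220 and Nedd4l were lower in cardiomyocytes, and Pitpnc1 and Klhl7 were higher. The member 1972 bases past Uggt1, a folding sensor of the endoplasmic reticulum, held 11.0, 5.85 and 6.40 CPM in cardiomyocytes against 0.522, 0.870 and 0.388 CPM in nonmyocytes. Uggt1 went the other way, with 35.6, 54.3 and 59.0 CPM against 128, 143 and 150 CPM. Neither overlapped between fractions, and the log2 change of the ratio was 5.16 ± 0.56 (adjusted p = 8.10e-05 in edgeR). The member 506 bases past Kidins220, a scaffold of neurotrophin receptors, averaged 3.68 ± 1.03 CPM in cardiomyocytes and 0.150 ± 0.197 CPM in nonmyocytes, whereas Kidins220 averaged 102 ± 26.5 CPM and 197 ± 13.1 CPM. It lies before the M21 end of Kidins220, and its ratio rose by 5.36 ± 0.74 on the log2 scale (adjusted p = 0.000412 in edgeR) and by 7.11 without nonmyocyte replicate 1. Past Nedd4l, a ubiquitin ligase of ion channels, the member averaged 2.97 ± 0.879 CPM and 0.436 ± 0.337 CPM beside 39.7 ± 4.25 CPM and 94.1 ± 13.6 CPM for Nedd4l. The members past Pitpnc1, a lipid transfer protein, and Klhl7, a ubiquitin ligase adaptor, had 2 nonmyocyte counts each, and were 208-fold (95% exact interval 57.2 to 1718) and 101-fold (27.7 to 840) higher, beside log2 fold changes of 2.20 and 1.75 for the coding genes.

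The 8 called falls of the ratio were past Hspa1b, Pfn4, Calr3, Ccdc115, Zmym6, Sepp1, Eif2ak2 and Gmeb1, from the largest to the smallest. The rank of Hspa1b is uncertain, since its cardiomyocyte mean rests on library 1 and its reads can fall on a near-identical copy, as described above. Past Calr3, a calreticulin family gene named after its values were seen, the log2 change was -4.14 ± 0.64, with the member at 1.73 ± 1.19 CPM in cardiomyocytes and 1.66 ± 0.894 CPM in nonmyocytes. The means of this member were close, so the fall of its ratio lies in the counts of Calr3 and not in a lower member. The most abundant member among the 8 in cardiomyocytes lay past Gmeb1 and the next past Eif2ak2, the interferon-induced kinase PKR. The member 20 bases past Eif2ak2, n413921 on chromosome 17 (mm9, 79249844 to 79251884, minus strand), held 4.84, 6.06 and 8.92 CPM in cardiomyocytes against 93.5, 100.4 and 110.0 CPM in nonmyocytes. Eif2ak2 averaged 7.48 ± 1.62 CPM and 39.1 ± 5.55 CPM (SD, n = 3 each). Both were lower in cardiomyocytes without overlap, the lncRNA gene more so, and the ratio fell by 1.53 ± 0.43 on the log2 scale (adjusted p = 0.0212 in edgeR). Past Gmeb1, a modulator of glucocorticoid response, the member held 26.0, 60.1 and 51.7 CPM against 95.5, 133 and 119 CPM, while Gmeb1 averaged 9.77 ± 0.610 CPM and 11.0 ± 1.20 CPM. Its ratio fell by 1.20 ± 0.40 (adjusted p = 0.0474 in edgeR). The ratio past Gmeb1 was not called without any one of the 6 libraries (0.0714 to 0.193 in edgeR), nor that past Eif2ak2 without cardiomyocyte replicate 2 or any one nonmyocyte library (0.0714 to 0.124). The ratio also fell past Ccdc115, which helps to assemble the proton pump, with a log2 change of -3.55 ± 0.62, past the zinc finger gene Zmym6 with -1.97 ± 0.47, and past the selenium carrier Sepp1 with -1.76 ± 0.38. The calls past Zmym6 and Sepp1 were lost without cardiomyocyte replicate 2 (0.0696 and 0.0570 in edgeR) and without cardiomyocyte replicate 3 (0.0563 and 0.0651).

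**Figure D5:**
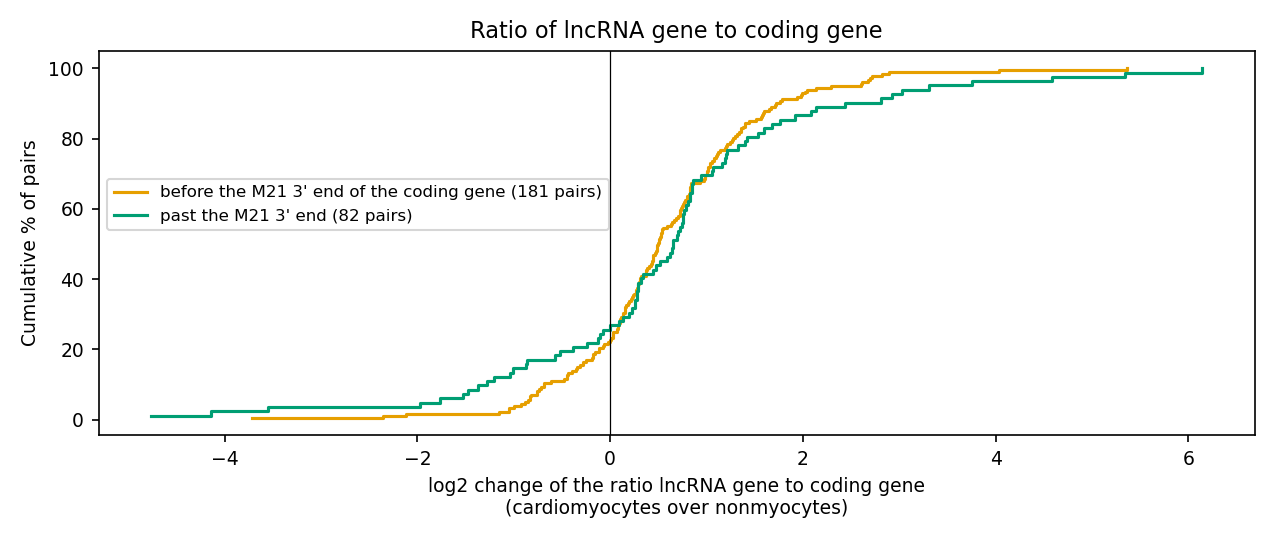
Cumulative percent of pairs (vertical axis) by the log2 change of the ratio of lncRNA gene to coding gene, cardiomyocytes over nonmyocytes (horizontal axis). The orange line shows 181 pairs with the lncRNA gene before the M21 3′ end and the green line 82 pairs past it; the called falls, 0 and 7, lie on the green line.

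Only 5 of the 131 pairs with both genes called went in opposite directions. The lncRNA gene was higher and the coding gene lower past Uggt1, Kidins220 and Nedd4l. Uggt1 counts here with a pair of members, the second of which, at 1027 bases, was chosen after its values were seen and averaged 7.06 ± 0.849 CPM in cardiomyocytes and 2.39 ± 0.556 CPM in nonmyocytes. The member 3438 bases past Pfn4, a profilin family gene, was lower, at 1.49 ± 0.205 CPM and 8.61 ± 0.303 CPM, while Pfn4 was higher, at 2.49 ± 0.988 CPM and 0.553 ± 0.210 CPM.

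The abundant members that were not called overlapped between the fractions. The 5-exon member 2659 bases past a second gene with the symbol Tns1 held 95.1, 103 and 121 CPM in cardiomyocytes against 70.9, 94.0 and 116 CPM in nonmyocytes, and the fractions overlapped. With library totals alone it was called lower (log2 fold change -0.49, adjusted p = 0.0375 in edgeR). Past Tead1 the libraries held 90.5, 84.2 and 85.0 CPM against 83.0, 87.5 and 97.1 CPM, and they overlapped as well. This member too was called lower with library totals alone (log2 fold change -0.72, adjusted p = 0.00135 in edgeR). The 20772-base gene 4224 bases past Frmd8, which binds a partner of a cell surface protease, held 167, 20.6 and 36.5 CPM against 44.6, 65.8 and 33.3 CPM. Cardiomyocyte library 1 stood apart there, and without it the log2 fold change was -0.71 in place of 0.61 and was called (adjusted p = 0.0180 in edgeR).

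Per kb of exon bases shared with no other gene, members were usually below their coding gene. In 324 pairs with at least 200 such bases in both genes, the level per kb of the lncRNA gene had a median of 48.4% of that of the coding gene in cardiomyocytes (quartiles 18.2 and 96.5) and, in 322 pairs, 31.7% in nonmyocytes (quartiles 9.94 and 68.9). It stood above the coding gene in 78 pairs in cardiomyocytes and in 47 in nonmyocytes. The percentage was the higher one in cardiomyocytes in 236 of 322 pairs. How evenly reads cover transcripts, which also sets levels near a 3′ end, was not tested. Over all 6 libraries together, and where each library of a fraction held at least 2 CPM of the coding gene, the highest levels per kb relative to the coding gene were past 4 genes. They were Gmeb1, with 2736% in cardiomyocytes and 6117% in nonmyocytes, and Dnajb14, a co-chaperone, with 1187% and 532%. Past Igsf3, a cell surface immunoglobulin protein, the values were 460% and 312%, and past Eif2ak2 134% and 393%.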

How the data were processed

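Whole-number counts per gene of polyadenylated RNA were deposited by the authors as a table of 57683 genes in 6 libraries, not normalised, together with the annotation. Bowtie, TopHat 1.3.0, HTSeq, DESeq, edgeR and the build mm9 (NCBIM37) come from the submitters' processing notes, which give no roles. Libraries were single-end and not strand-specific, per the labels' protocols. The 6 columns of small RNA counts were not used. Feature positions deposited by the authors are other values, in mm9 bases.

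Counts were analysed with edgeR 4.0.16 in R 4.3.3 (filterByExpr with minimum count 10, TMM, robust quasi-likelihood test, two-sided, Benjamini-Hochberg adjusted p under 0.05). Fits covered the whole table, and CPM values use TMM-scaled library sizes. Errors of log2 values are standard errors. The ratio was tested as the interaction of feature and fraction in a table of pairs with library as a term. On simulated counts, 71.5% of 200 genes changed 4-fold were recovered. A floor of 3 counts equals 0.145 to 0.581 CPM per library. Python 3.11.15 with matplotlib 3.10.9 made the figures.

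Alternatives were other scalings, no filter, DESeq2 1.42.0, limma 3.58.1, the replicate number as a block, leaving out each library, a limit of 1000 bases, and members with no shared exon base. Chosen after seeing the data were members past the M21 end and the nearest tested member of each coding gene. The members and lists were chosen with earlier results of these data known. Named members are, per direction among those called without overlap, the 6 highest in mean CPM and the 6 largest folds where each library of the higher fraction held 2 CPM or more, the 5 largest ratio changes (at the same 2 CPM limit), the 4 largest opposite pairs, the 3 highest not called, the 4 highest per kb relative to the coding gene, and members past listed genes.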

Additional observations from a re-analysis of the deposited data

How the results depend on the processing

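With members sharing no exon base, 87 were higher and 29 lower in cardiomyocytes, and the ratio was higher for 25. Within 1000 bases the counts were 65 and 20, with 17 ratios higher and 2 lower. Past the M21 end they were 26 and 13, with 9 ratios higher. Each of these settings takes in fewer members. Library totals alone gave 85 lower, and no filter gave 17 higher ratios; the cause was not tested. Without one library, 111 to 155 members were higher and 41 to 60 lower, 22 to 41 ratios were higher and 3 to 9 lower, and the share with the same direction was 94.4% to 96.2%. The difference in the share of counts was -0.0279 to 0.0197 percentage points. With the replicate number as a block, 128 were higher, 47 lower, 42 ratios higher and 8 lower, and 92.6% had the same direction; the members past Bmpr2 (-0.68, adjusted p = 0.0436 in edgeR) and Dnajb14 (0.62, 0.0474) were then called. No label says what the replicate numbers stand for, so they were not taken as pairs. Same-numbered libraries deviated together with correlations of 0.162, 0.0504 and 0.10, which cannot decide whether they are paired.

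Of 672 values for named members under alternatives, 633 kept direction and call, 20 lost and 10 gained a call, and 9 reversed. Reversed log2 fold changes were, with library totals, -0.49 past the second Tns1, -0.072 past Dnajb14, -0.10 past Palld and -0.25 past Igsf3. With limma voom they were 0.023 past Tbx20 and -0.17 past Frmd8. Past Tead1 the value was 0.026 without a filter and 0.079 without nonmyocyte replicate 3 (range without one library -0.046 to 0.079), and past Frmd8 it was -0.71 without cardiomyocyte replicate 1 (range -0.71 to 1.06). With the settings used here none of these was called, except past Palld, whereas the reversed values past the second Tns1 and, without cardiomyocyte replicate 1, past Frmd8 were called (adjusted p = 0.0375 and 0.0180 in edgeR), and the cause was not tested.

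The shallowest library, cardiomyocyte 1, held counts of 481 members and the deepest of 745. At these depths most members could not be tested, and a member with no counts is not shown to be absent.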

Other observations

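Of the tested members, 13 followed a coding gene that did not pass the filter on low counts, and they stand in no pair above. In 7 of these, past 6 coding genes, the coding gene had 0 counts in all libraries while 85.5% to 100% of its exon bases were shared with other annotated genes, so that its own level is not given by these counts. Among the 13, 5 were higher in cardiomyocytes (edgeR quasi-likelihood), 2 lower and 6 not called. The following were named after their values were seen. The member 739 bases past 1600014C10Rik, whose exon bases are 99.6% shared, averaged 34.2 ± 3.38 CPM in cardiomyocytes and 18.6 ± 4.02 CPM in nonmyocytes (SD, n = 3 each). A pair of members past Dnajc15, a mitochondrial co-chaperone whose exon bases are all shared, averaged 2.48 ± 0.784 CPM and 2.49 ± 0.559 CPM in cardiomyocytes. In nonmyocytes the first had 0 counts, which makes it at least 27.6-fold higher in cardiomyocytes, and the second 4 counts. The member 1207 bases past Pkd2l1, a cation channel that was nearly undetected, averaged 1.24 ± 0.487 CPM in cardiomyocytes and 5.88 ± 0.318 CPM in nonmyocytes.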
